A study of Arabidopsis thaliana with 24 samples.

Results

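A set of 44 Arabidopsis thaliana genes was examined that were present in every wild type library at 12 days and close to absent in both mutant combinations that include nasp. Of the 32548 genes listed, these 44 had a deposited value of at least 50 in all 3 wild type libraries and of at most 10 in all 3 hag2nasp and all 3 msi2msi3nasp libraries. The rule left out 7 genes of the iron deficiency response by locus, 3 of which (BHLH38, BHLH39 and BHLH101) also met its limits. Because the loss in hag2nasp and msi2msi3nasp chose the genes, it is described here and was not tested. The questions that follow are what the genes encode, and what their levels were in the groups that the rule did not use.

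All samples were described as whole seedlings, labelled by genotype with every mutation homozygous, and 3 libraries of total RNA were made for each group. At 20 days 4 of 16 root markers were at 0 in every wild type library (given below), and the organs sampled were not checked further. At 12 days, plants on plates of Murashige and Skoog medium were hag2-/- nasp-/- (hag2nasp), msi2-/- msi3-/- nasp-/- (msi2msi3nasp), nasp-/- (nasp), hag2-/- msi2-/- msi3-/- (hag2msi2msi3) or Col-0 wild type. At 20 days, plants from a growth chamber were hag2-/- msi2-/- msi3-/-, msi2-/- msi3-/- (msi2msi3) or Col-0 wild type, and no nasp genotype was among them. Day length was 16 h, with 8 h of dark, and the temperature 22 °C at both ages. The alleles, and whether replicates were grown apart, are not given in the sources used here and p-values therefore cover the spread among these libraries alone, which may be technical. Deposited values are the authors' normalized read totals per gene, with fractions, and are not divided by gene length. Libraries summed to 19.6 to 21.0 M at 12 days and to 45.7 to 48.2 M at 20 days, and since each age was normalized apart, levels at both ages are set side by side and not tested.

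The mutated genes encode parts of NuB4, a complex that handles newly made histones. HAG2 is a type B histone acetyltransferase that acetylates free histone H4, MSI2 and MSI3 are WD40 proteins that bind histones, and NASP is a chaperone of histones H3 and H4. NASP transcripts stood at 26.1% of the wild type mean in hag2nasp, 27.2% in msi2msi3nasp and 29.98% in nasp. HAG2 stood at 6.43% in hag2nasp, and at 17.9% (12 days) and 14.2% (20 days) in libraries labelled hag2msi2msi3. MSI3 was between 16.2% and 30.8% in every group that carries its mutation. MSI2 was at 45.3% in msi2msi3nasp and 46.2% in msi2msi3, but at 92.9% (12 days) and 82.1% (20 days) in the libraries labelled hag2msi2msi3, so transcript levels do not check the msi2 part of that label.

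All 44 genes are protein coding, with 9, 8, 10, 13 and 4 of them on chromosomes 1 to 5. By the reference annotation, 6 are auxin response genes, 3 encode transcription factors or DNA-binding proteins and 1 a receptor kinase. A further 4 serve transport or nutrient acquisition, 6 the cell wall, cytoskeleton or membrane traffic, 9 are other enzymes, and 15 encode other or uncharacterized proteins. Wild type means at 12 days ran between 58.1 (AT4G33120) and 445.3 (AT3G46490) with a median of 100.05, against a median of 460.0 over the 16850 other genes that had every wild type value at 50 or more. The limit of 10 favours genes of low wild type level, since a high gene would need a far larger fall to reach it. Transcripts of the 44 genes had a median length of 1291 bases and a median of 2 exons, and 29.5% (13 genes) had a single exon. Among the 16850 others these were 1795 bases, 5 exons and 12.8%.

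Auxin response genes made up 6 of the 44. Aux/IAA proteins are short-lived repressors that hold auxin response factors inactive until auxin triggers their breakdown. SAUR genes (small auxin up RNA) are switched on quickly by auxin, and several SAUR proteins promote cell expansion by raising proton pump activity at the plasma membrane. The 6 genes were the Aux/IAA genes IAA6 and IAA29 and the SAUR genes SAUR22, SAUR27, SAUR29 and AT3G53250. SAUR29 and SAUR27 lie 3.60 kb apart on chromosome 3 with 3 genes between them. Another near pair of members on that chromosome, AT3G46370 and AT3G46490, has 60.0 kb and 11 genes between.

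The 250 bases before the annotated start of IAA6, SAUR22 and IAA29 are printed from the RefSeq genome (TAIR10.1; the submitters' notes name TAIR10 for the deposited values). They show the pair of auxin genes of the set that carry an auxin response element in this window beside IAA29, which does not carry one. In libraries labelled hag2msi2msi3 at 12 days their means were 42.8% (IAA6), 69.2% (SAUR22) and 36.0% (IAA29) of the wild type mean. Of these genes IAA29 alone was called there, and the rule used the wild type libraries. A link between the element and these levels was not tested. Sequences run 5′ to 3′ on the strand of the gene. Capitals mark TGTCTC, the letters of the auxin response element (GAGACA where it lies on the opposite strand), and TATAAA.
IAA6 (chr1:19673653-19673902, minus strand): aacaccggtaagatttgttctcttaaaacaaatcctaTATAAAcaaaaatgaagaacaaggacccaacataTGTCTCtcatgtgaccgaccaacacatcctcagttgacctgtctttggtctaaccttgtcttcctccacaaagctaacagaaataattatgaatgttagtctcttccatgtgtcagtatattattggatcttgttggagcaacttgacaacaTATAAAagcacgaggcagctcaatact
SAUR22 (chr5:5975088-5975337, minus strand): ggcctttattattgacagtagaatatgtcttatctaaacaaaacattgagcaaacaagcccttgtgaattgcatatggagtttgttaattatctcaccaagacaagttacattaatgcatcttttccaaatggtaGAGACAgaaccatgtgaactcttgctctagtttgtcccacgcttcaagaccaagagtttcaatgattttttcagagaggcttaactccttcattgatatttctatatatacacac
IAA29 (chr4:15583082-15583331, plus strand): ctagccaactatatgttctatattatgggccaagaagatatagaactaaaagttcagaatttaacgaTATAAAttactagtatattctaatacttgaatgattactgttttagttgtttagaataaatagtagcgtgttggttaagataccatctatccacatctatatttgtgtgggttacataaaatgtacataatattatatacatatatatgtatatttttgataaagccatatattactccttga
The element stood 179 bases before the start of IAA6 and 115 bases before that of SAUR22. Either strand of this window held TGTCTC or TGTCGG in 9 of the 44 genes (20.5%) and in 14.7% of all 27443 protein-coding genes. The evening element AAATATCT, a site of clock factors, was found in 4 of 44 (9.09%) against 4.79% of all, the G-box CACGTG in 2.27% against 6.49%, and TATAAA in 59.1% against 47.3%. The W-box letters TTGACC or TTGACT were in 20.5% against 28.4%, the I-box GATAAG in 6.82% against 12.3%, the CCA1 site AAAAATCT in 6.82% against 6.69%, and the telo-box AAACCCTA in 0 of 44 against 4.49%. These are counts of letters and were not tested.

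**Figure D1:**
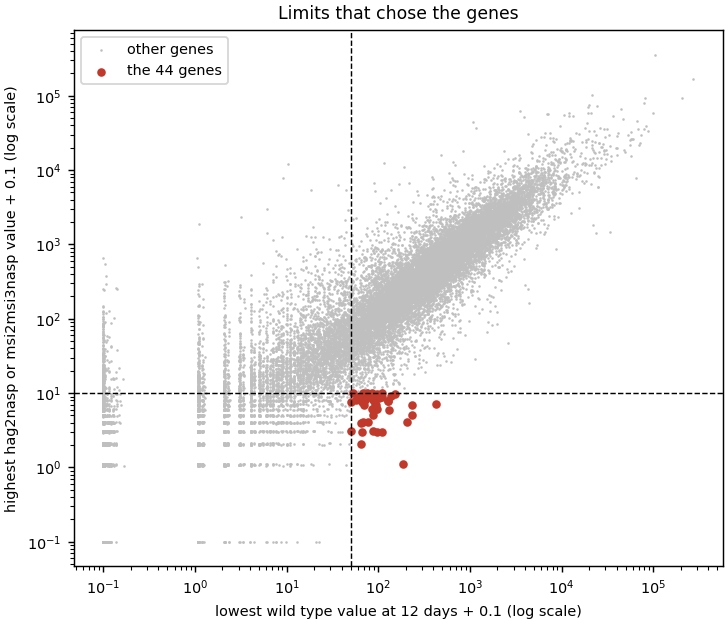
Lowest wild type value at 12 days (horizontal axis, log scale) against the highest value in the 6 hag2nasp and msi2msi3nasp libraries (vertical axis, log scale), 1 point per gene, with 0.1 added to each value. Dashed lines mark the limits of 50 and 10; the 44 genes (red) fill the lower right corner, where the 3 iron genes left out by name lie as grey points.

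The set has no natural edge at the limits, as the plot of the limits that chose the genes shows. Just inside the wild type limit lay AT4G33120, IAA6 and AT1G14190, with lowest wild type values of 50.3, 50.4 and 52.5. Just outside it lay BGLU43, CLE2 and BUD2, with 49.5, 49.4 and 48.2. Just inside the limit on the combinations lay CYP82C4, IAA29 and AT1G14190, with highest values of 9.94, 9.92 and 9.92, and just outside it lay SAUR68, IPS1 and AT1G32780, each at 10.03.

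Summed over the 44 genes, each hag2nasp library held 139.5 to 172.8 and each msi2msi3nasp library 146.7 to 202.3, against 5177 to 5378 in each wild type library. Relative to the wild type mean, single genes in hag2nasp stood between 0% (AT2G47880) and 11.7% (AT1G14190) with a median of 3.102%. In msi2msi3nasp they stood between 0.297% (AT2G17850) and 12.1% (AT4G33120) with a median of 3.65%. The rule fixes these falls, and 33.2% of all 24305 genes tested were called lower in hag2nasp and 33.3% in msi2msi3nasp, so wide change in both combinations is their background.

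**Figure D2:**
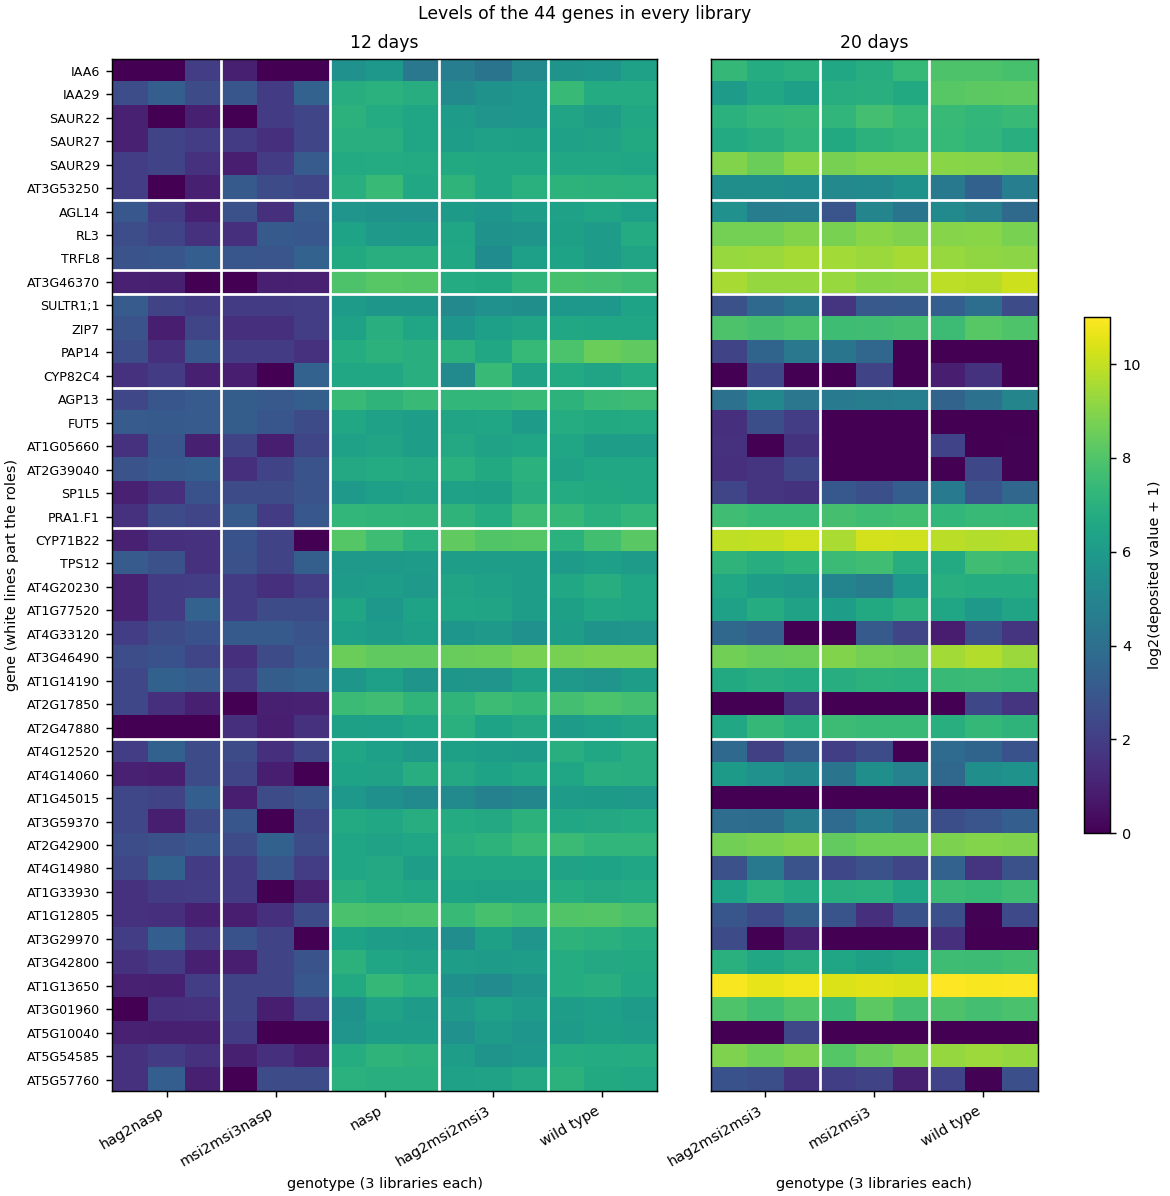
Colour gives log2(deposited value + 1) for each of the 44 genes (rows, grouped by role) in each library (columns, 3 per genotype) at 12 days (left) and 20 days (right). At 12 days the dark columns are hag2nasp and msi2msi3nasp, while all 44 genes are lighter in nasp, hag2msi2msi3 and wild type. At 20 days a block of genes is dark in every genotype.

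In nasp, where the chaperone alone is mutated, the 44 genes were present. Their sum was 4513 to 4870 per library in nasp, against 5177 to 5378 in the wild type. Every nasp value lay above every hag2nasp and msi2msi3nasp value for 44 of 44 genes (31.8% of all genes tested had this order). The rule sets no limit on nasp, but with the combinations held to 10 any nasp value above 10 meets this order. The lowest single nasp value over all members was 20.1 (IAA6). As a share of the wild type mean, nasp levels ran between 39.5% (PAP14) and 146.8% (TRFL8) with a median of 95.3%, and 43 of 44 genes were at 50% or more. In libraries labelled hag2msi2msi3 at 12 days the genes were present too, with a sum of 4120 to 4508 that lay below that of every nasp library. The share of the wild type mean ran between 36.0% (IAA29) and 137.5% (AT2G47880) with a median of 81.7%, and 39 of 44 genes were at 50% or more. Every value of the libraries labelled hag2msi2msi3 was above every combination value for 44 of 44 genes (30.1% of all genes tested), with a lowest single value of 17.8, again IAA6.

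Differences between groups were fitted with limma over all genes of an age, on log2(value + 1), and called where the Benjamini-Hochberg adjusted p was below 0.05. Between nasp and the wild type, 2 of the 44 genes were called lower (1.39% of all genes tested were) and 0 higher (background 2.5%), with 3 members at an unadjusted p below 0.05. The median fitted log2 difference over the members was -0.09, against 0 over all genes. Missing the threshold does not show that a level was the same: in nasp, the 95% interval excluded a 2-fold fall for 29 of 44 members, against 87.3% of all genes tested. It did so for 99.3% of the 16850 other genes with every wild type value at 50 or more, a set of higher median level. Between libraries labelled hag2msi2msi3 and the wild type, 4 members were called lower (background 1.96%) and 0 higher (background 2.08%), with 9 at an unadjusted p below 0.05. There the median fitted difference was -0.34 against 0 over all genes, with 35 of 44 members below 0 against 50.1% of all genes. The interval excluded a 2-fold fall for 23 of 44, against 87.6% of all genes and 99.0% of the 16850 others. Both comparisons rest on the same wild type libraries that the rule used, each of which had to reach 50, so part of a low value in a mutant can come from that choice. The direct comparison of nasp with the libraries labelled hag2msi2msi3 used no library of the rule: 4 members were called higher in nasp (background 5.55%) and 0 lower (background 5.13%), with 6 at an unadjusted p below 0.05.

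**Figure D3:**
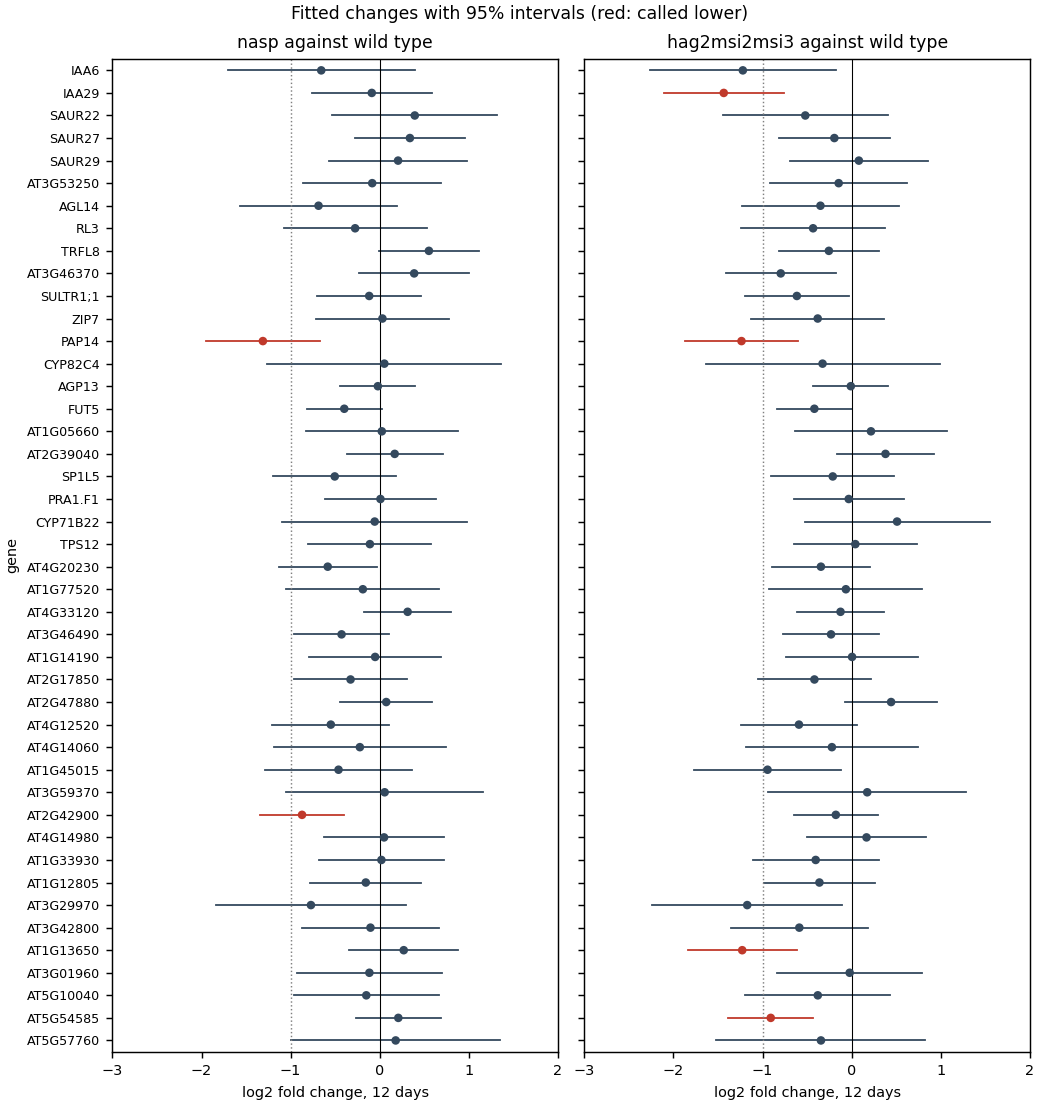
Fitted log2 fold change (points) with its 95% interval (bars) for each of the 44 genes in nasp (left) and in libraries labelled hag2msi2msi3 (right) against the wild type at 12 days; red marks genes called lower and the dotted line a 2-fold fall. Most points in nasp lie around 0, with 2 genes called, and in hag2msi2msi3 35 of 44 points lie left of 0, with 4 called.

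Of the 6 auxin genes, IAA29 was the one called in a comparison at 12 days. IAA29 had 5.02, 8.63 and 4.88 in hag2nasp, 6.64, 2.74 and 9.92 in msi2msi3nasp, 115, 129 and 114 in nasp, 37.6, 49.6 and 53.4 in libraries labelled hag2msi2msi3 and 172, 109 and 109 in the wild type. Its values labelled hag2msi2msi3 lay between those of the combinations and those of nasp and the wild type, with no overlap on either side. The log2 fold change was -1.44 ± 0.32 (SE, adjusted p = 0.0163) in libraries labelled hag2msi2msi3 against the wild type, a call that ended in 5 of 14 other fits (without hag2msi2msi3 replicate 1, wild type replicate 1, the filter on low values or the trend, and with only these 2 groups fitted). It was 1.34 ± 0.32 (SE, adjusted p = 0.0104) in nasp against libraries labelled hag2msi2msi3, a call that ended without hag2msi2msi3 replicate 1 and without the filter.

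IAA6 had 0.000844, 0 and 2.96 in hag2nasp, 0.961, 0 and 0 in msi2msi3nasp, 45.6, 57.0 and 20.1 in nasp, 24.7, 17.8 and 35.5 in libraries labelled hag2msi2msi3 and 50.4, 54.6 and 77.3 in the wild type. All of its values labelled hag2msi2msi3 and 2 of its 3 nasp values lay below the wild type range, and it was called in neither comparison (adjusted p = 0.198 in libraries labelled hag2msi2msi3 and 0.586 in nasp). Among the SAUR genes, SAUR22 had 1.003, 0 and 0.980 in hag2nasp, 0, 2.84 and 3.97 in msi2msi3nasp, 132, 106 and 90.7 in nasp, 67.3, 51.6 and 53.6 in libraries labelled hag2msi2msi3 and 84.6, 68.6 and 96.1 in the wild type. The neighbours SAUR27 and SAUR29 averaged 109.7 ± 20.0 and 106 ± 2.38 in nasp, against 86.3 ± 13.8 and 91.6 ± 3.35 in the wild type (SD, n = 3 each). AT3G53250 averaged 129 ± 35.6 in nasp and 122 ± 23.0 in libraries labelled hag2msi2msi3, against 133 ± 5.605 in the wild type. None of the 4 SAUR genes was called in nasp or in libraries labelled hag2msi2msi3, and their nasp means were 96.5% to 131.9% of the wild type mean.

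The families that these genes belong to were counted without them, from lists chosen with earlier results known. Of the 68 other SAUR genes tested, 40 were called lower and 13 higher in hag2nasp, and 42 lower and 11 higher in msi2msi3nasp, where 33.2% and 33.3% of all genes were called lower and 33.1% and 33.6% higher. Their median log2 difference was -0.96 in hag2nasp and -1.21 in msi2msi3nasp, against 0.000794 and -0.000713 over all genes. In nasp, 4 of the 68 were called higher (background 2.5%) and 0 lower (background 1.39%). In libraries labelled hag2msi2msi3 at 12 days 1 was higher (background 2.08%) and 0 lower (background 1.96%). Of the 26 other Aux/IAA genes, 18 were lower and 2 higher in hag2nasp, and 17 lower and 1 higher in msi2msi3nasp, with medians of -1.05 and -1.004. IAA19 was the lowest of them by fitted change, at 18.6 ± 3.28 in hag2nasp and 18.2 ± 6.42 in msi2msi3nasp against 169.3 ± 22.6 in the wild type (SD, n = 3). It was chosen after its values were seen. In nasp 1 of the 26 was called higher (background 2.5%) and 0 lower (background 1.39%), and in libraries labelled hag2msi2msi3 at 12 days 0 were called.

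The group of 3 transcription factors and DNA-binding proteins holds AGL14, a MADS-domain factor of root development, RL3, a small MYB-related RADIALIS-like protein, and TRFL8, a member of the telomere repeat binding factor-like family. AGL14 had 7.02, 2.84 and 0.955 in hag2nasp, 5.70, 1.80 and 7.94 in msi2msi3nasp, 51.7, 49.0 and 46.8 in nasp, 63.3, 54.5 and 70.2 in libraries labelled hag2msi2msi3 and 78.6, 89.4 and 72.3 in the wild type. Every nasp value and every value labelled hag2msi2msi3 lay below the lowest wild type value, but neither difference was called (adjusted p = 0.464 and 0.74). TRFL8 averaged 115 ± 11.4 in nasp against 78.1 ± 9.39 in the wild type, with no overlap and adjusted p = 0.334. RL3 averaged 67.7 ± 11.7 in nasp and 62.5 ± 22.3 in libraries labelled hag2msi2msi3, against 83.4 ± 22.6 in the wild type, with all 3 ranges overlapping.

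The receptor kinase group is AT3G46370, a leucine-rich repeat protein kinase gene. It had 1.003, 0.955 and 0 in hag2nasp and 0, 0.946 and 0.991 in msi2msi3nasp, against 246, 285 and 268 in nasp, 108, 102 and 145 in libraries labelled hag2msi2msi3 and 219.6, 206 and 186 in the wild type. The nasp values were all above, and the values labelled hag2msi2msi3 all below, those of the wild type, and the difference between both mutants was called (log2 fold change 1.18 ± 0.29 (SE, adjusted p = 0.0135) in nasp against libraries labelled hag2msi2msi3). That call ended with a pseudocount of 0.5 and without the filter. It also ended without nasp replicate 2, or without hag2msi2msi3 replicate 1 or 2, where the fitted values were 1.13, 1.12 and 1.08.

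Transport and nutrient genes were SULTR1;1, a high-affinity sulfate transporter of the root, ZIP7, a zinc transporter, PAP14, a purple acid phosphatase, and CYP82C4, a cytochrome P450 that makes an iron-mobilizing coumarin. SULTR1;1 had 8.02, 3.78 and 2.91 in hag2nasp, 2.84, 2.82 and 2.97 in msi2msi3nasp, 65.9, 56.3 and 55.2 in nasp, 35.6, 45.6 and 44.1 in libraries labelled hag2msi2msi3 and 56.4, 56.7 and 82.3 in the wild type. Its values labelled hag2msi2msi3 lay below both nasp and the wild type without a call against the wild type (adjusted p = 0.252). CYP82C4 had 2.01, 2.88 and 0.968 in hag2nasp, 0.893, 0 and 9.94 in msi2msi3nasp, 92.4, 97.0 and 122 in nasp, 36.4, 167 and 81.1 in libraries labelled hag2msi2msi3 and 106, 85.6 and 109 in the wild type. Its libraries labelled hag2msi2msi3 spread more widely than those of any other group. ZIP7 averaged 94.0 ± 20.9 in nasp and 70.5 ± 14.9 in libraries labelled hag2msi2msi3, against 90.8 ± 4.63 in the wild type.

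PAP14 was the one member called lower in both nasp and the libraries labelled hag2msi2msi3 at 12 days. It had 5.02, 1.85 and 6.87 in hag2nasp, 2.85, 2.83 and 1.98 in msi2msi3nasp, 109.7, 132 and 122 in nasp, 135, 94.1 and 163 in libraries labelled hag2msi2msi3 and 234, 366 and 320.0 in the wild type. The nasp values and those labelled hag2msi2msi3 overlapped each other and lay below every wild type value, with log2 fold changes of -1.31 ± 0.30 (SE, adjusted p = 0.0173) in nasp and -1.24 ± 0.30 (SE, adjusted p = 0.0284) in libraries labelled hag2msi2msi3. Both differences use the same wild type libraries. The nasp call ended without any 1 of 5 of the 6 libraries and the call in libraries labelled hag2msi2msi3 without any 1 of 4 of the 6, and each ended in 7 of 14 other fits in all, among them those without the filter and without the trend.

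CYP82C4 belongs to the root iron deficiency response, 7 other genes of which the rule left out. Of 18 other genes of that response, 12 were called lower and 3 higher in hag2nasp and likewise 12 and 3 in msi2msi3nasp, where 33.2% and 33.3% of all genes tested were called lower and 33.1% and 33.6% higher, with medians of -0.52 and -0.66 on the log2 scale. The metal transporter gene IRT2 was among the lower ones, at 41.1 ± 3.64 in hag2nasp and 21.2 ± 4.10 in msi2msi3nasp against 110.5 ± 0.589 in the wild type (SD, n = 3), and was chosen after its values were seen. In nasp 5 of the 18 were called higher (background 2.5%) and 0 lower, and in libraries labelled hag2msi2msi3 at 12 days 1 was higher (background 2.08%) and 0 lower.

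Cell wall, cytoskeleton and membrane members were AGP13 (an arabinogalactan protein), FUT5 (a fucosyltransferase), AT1G05660 (a pectin lyase-like protein), AT2G39040 (a class III peroxidase), SP1L5 (a SPIRAL1-like microtubule protein) and PRA1.F1 (a prenylated Rab acceptor of vesicle traffic). Their nasp means were 70.5% to 112.2% of the wild type mean and their means in libraries labelled hag2msi2msi3 75.0% to 130.8%, and 0 of the 6 were called in either. AGP13 had 4.02, 6.68 and 7.84 in hag2nasp, 8.54, 7.52 and 8.92 in msi2msi3nasp, 167, 143 and 174 in nasp, 155, 156 and 176 in libraries labelled hag2msi2msi3 and 136, 172 and 186 in the wild type. The last 3 groups overlapped throughout. PRA1.F1 averaged 147 ± 8.03 in nasp and 145 ± 35.9 in libraries labelled hag2msi2msi3, against 146 ± 16.8 in the wild type (SD, n = 3 each).

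The 9 other enzymes include the cytochrome P450 CYP71B22, the terpene synthase genes TPS12 and AT4G20230, the methyltransferases AT1G77520 and AT4G33120, the 2-oxoglutarate-dependent oxygenase AT3G46490, the oxidoreductase AT1G14190, the rhodanese-like AT2G17850 and the glutaredoxin AT2G47880. None of them was called at 12 days in nasp, in libraries labelled hag2msi2msi3 or between both. AT3G46490 had 5.02, 5.73 and 3.90 in hag2nasp, 1.84, 4.72 and 6.95 in msi2msi3nasp, 363, 317 and 313 in nasp, 346, 372 and 423 in libraries labelled hag2msi2msi3 and 431, 449 and 456 in the wild type. It had the highest wild type level of the set, and its nasp values and those labelled hag2msi2msi3 stood below the wild type range with adjusted p = 0.453 and 0.712. AT2G47880 was listed at 0 in all 3 hag2nasp libraries and had 1.90, 0.922 and 1.98 in msi2msi3nasp, 74.1, 72.0 and 87.2 in nasp, 125, 82.3 and 98.8 in libraries labelled hag2msi2msi3 and 64.5, 73.6 and 84.2 in the wild type.

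CYP71B22 varied widely among libraries of 1 genotype, with 277, 189.8 and 131 in nasp, 319, 254 and 277 in libraries labelled hag2msi2msi3 and 130.1, 205 and 290.5 in the wild type, against 1.005, 1.91 and 1.96 in hag2nasp and 5.76, 3.78 and 0 in msi2msi3nasp. AT2G17850 had 4.01, 1.89 and 0.965 in hag2nasp, 0, 0.946 and 0.991 in msi2msi3nasp, 178, 196 and 148 in nasp, 144, 183 and 162 in libraries labelled hag2msi2msi3 and 209.5, 234 and 208 in the wild type. Its nasp values and those labelled hag2msi2msi3 all lay below the wild type range, without a call.

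Among the 15 other or uncharacterized proteins, AT1G13650 and AT5G54585 were called between nasp and libraries labelled hag2msi2msi3. The uncharacterized AT1G13650 had 1.005, 0.935 and 2.95 in hag2nasp, 3.76, 3.74 and 6.94 in msi2msi3nasp, 102, 160.1 and 130 in nasp, 45.5, 38.7 and 51.3 in libraries labelled hag2msi2msi3 and 111, 118 and 92.1 in the wild type. The values labelled hag2msi2msi3 stood apart below nasp and the wild type, with a log2 fold change of 1.496 ± 0.29 (SE, adjusted p = 0.00242) in nasp against libraries labelled hag2msi2msi3 and of -1.23 ± 0.29 (SE, adjusted p = 0.0239) in libraries labelled hag2msi2msi3 against the wild type. AT5G54585, also uncharacterized, had 2.01, 2.87 and 1.95 in hag2nasp, 0.936, 1.90 and 0.989 in msi2msi3nasp, 111, 142 and 133 in nasp, 68.3, 50.6 and 57.8 in libraries labelled hag2msi2msi3 and 112, 109 and 111 in the wild type. Again libraries labelled hag2msi2msi3 stood apart, with 1.11 ± 0.23 (SE, adjusted p = 0.00333) in nasp against libraries labelled hag2msi2msi3 and -0.91 ± 0.23 (SE, adjusted p = 0.0303) in libraries labelled hag2msi2msi3 against the wild type. The nasp against libraries labelled hag2msi2msi3 calls of both genes held without any 1 library and under each other setting tried. Those against the wild type each ended in 6 of 14 other fits, and leaving out 1 library at a time left 0 to 3 of the 4 calls of hag2msi2msi3 against the wild type.

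AT2G42900, of the plant basic secretory protein family, was the other gene called lower in nasp. It had 5.02, 5.71 and 6.86 in hag2nasp, 4.70, 9.52 and 4.95 in msi2msi3nasp, 90.3, 79.3 and 90.4 in nasp, 119.7, 139 and 168 in libraries labelled hag2msi2msi3 and 178, 151 and 151 in the wild type. The nasp values lay below those labelled hag2msi2msi3 and the wild type, with a log2 fold change of -0.87 ± 0.22 (SE, adjusted p = 0.0341) in nasp against the wild type, a call that ended without any 1 of the 6 libraries, without the filter and without the trend. The nucleotide binding protein gene AT1G12805 had 2.01, 1.91 and 0.971 in hag2nasp, 0.910, 1.86 and 4.96 in msi2msi3nasp, 226, 219 and 228 in nasp, 174, 221 and 191 in libraries labelled hag2msi2msi3 and 256, 264 and 232 in the wild type, and was not called in nasp or in libraries labelled hag2msi2msi3. AT3G29970, which encodes a B12D protein, averaged 72.5 ± 9.34 in nasp and 56.2 ± 17.4 in libraries labelled hag2msi2msi3, against 125 ± 14.5 in the wild type. Its nasp values and those labelled hag2msi2msi3 were below every wild type value, with adjusted p = 0.506 and 0.228. The other 10 of these 15 genes were AT4G12520 (lipid-transfer protein and albumin superfamily), AT4G14060 (polyketide cyclase and lipid transport superfamily), AT1G45015 (MD-2-related lipid recognition), AT3G59370 (vacuolar calcium-binding protein-like), AT4G14980 (C1 domain), AT1G33930 (a nucleoside triphosphate hydrolase), AT3G42800 (AF-like) and the uncharacterized AT3G01960, AT5G10040 and AT5G57760.

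At 20 days the wild type itself lacked part of the set. With every wild type value at 10 or below, 14 of the 44 genes (31.8%) were as low as the rule required of the combinations at 12 days, and for 10 of them every 20-day value of every genotype was at or below 10. A further 23 (52.3%) were at 50 or more in every 20-day wild type library, and 7 lay between. Among the 16850 other genes at 50 or more in every 12-day wild type library, 1.22% were at or below 10 and 95.2% at or above 50 in every 20-day wild type library. Among the 8186 of these with a 12-day wild type mean within the range of the 44 genes, the shares were 2.19% and 91.6%. The ages differ in growth medium, platform, read length and normalization, which cannot be told apart from age. Root markers differed too: 8 of 16 were at 10 or below in every 20-day wild type library, and 0 at 12 days. Annotation notes name places of expression for 11 of the 44 genes, with root among them for 9. These include 4 of the 14 low genes and 2 of the 23 at 50 or more. Whether the organs sampled play a part was not tested.

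**Figure D4:**
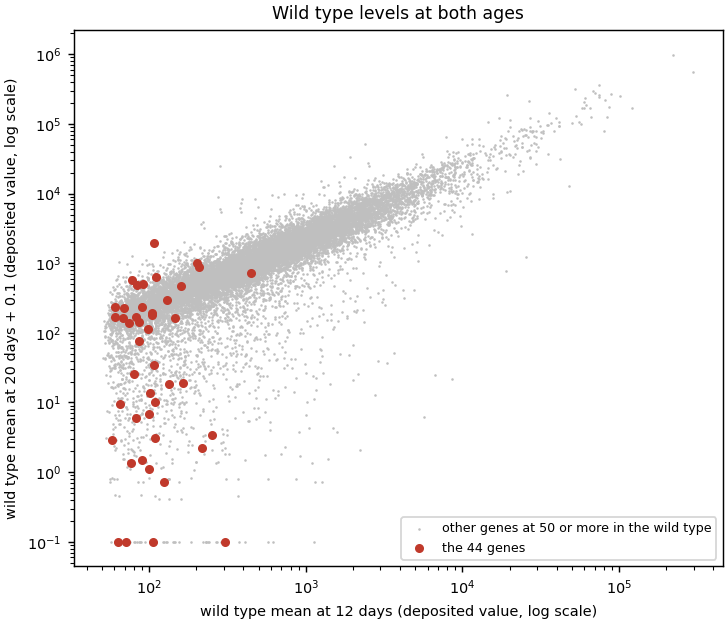
Wild type mean at 12 days (horizontal axis, log scale) against wild type mean at 20 days with 0.1 added (vertical axis, log scale), 1 point per gene among those at 50 or more in every 12-day wild type library. The 44 genes (red) lie partly along the band of the other genes (grey) and partly below it, with 14 at or below 10 in every 20-day wild type library; the 4 at the lower edge are listed at 0.

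The 14 genes that were low in the wild type at 20 days were AT1G05660, AT1G12805, AT1G45015, FUT5, AT2G17850, AT2G39040, PAP14, AT3G29970, AT3G59370, AT4G14980, CYP82C4, AT4G33120, AT5G10040 and AT5G57760. FUT5, PAP14, AT1G45015 and AT5G10040 were listed at 0 in all 3 wild type libraries. AT1G12805 had 6.70, 4.32 and 9.10 in libraries labelled hag2msi2msi3, 6.21, 1.78 and 5.82 in msi2msi3 and 5.44, 0.0513 and 4.43 in the wild type at 20 days, beside a mean of 250.7 ± 16.9 in the wild type at 12 days. CYP82C4 had 0, 4.16 and 0.00420 in libraries labelled hag2msi2msi3, 0.0123, 3.81 and 0 in msi2msi3 and 0.871, 2.101 and 0.0277 in the wild type at 20 days. Both were thus low in every 20-day genotype, wild type included.

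Marker genes of organs were summed beside the set. The 16 root markers (genes of the endodermis, root hair, root tip and root patterning) summed to 1977 to 2051 in hag2nasp, 1710 to 1912 in msi2msi3nasp, 3725 to 3960 in nasp, 3573 to 4246 in libraries labelled hag2msi2msi3 and 3528 to 3743 in the wild type at 12 days. At 20 days they summed to 2088 to 2244 in libraries labelled hag2msi2msi3, 2267 to 2357 in msi2msi3 and 2230 to 2363 in the wild type. There 4 of the 16 (EXPA7, PLT2, RHD6 and CASP5) were at 0 in every wild type library. Markers at 10 or below in every library of a 20-day group numbered 8 in the wild type, 8 in hag2msi2msi3 and 11 in msi2msi3. At 12 days they were PLT1 and CASP5 in hag2nasp, and PLT1, PLT2 and CASP5 in msi2msi3nasp. In nasp, libraries labelled hag2msi2msi3 and the wild type at 12 days there were 0. The sum of the 10 leaf and shoot markers was lower in both combinations too, at 184887 to 199054 in hag2nasp and 181924 to 218427 in msi2msi3nasp. It was 544946 to 615526 in nasp, 481798 to 582241 in libraries labelled hag2msi2msi3 and 418719 to 450707 in the wild type at 12 days. A sum follows its highest genes, and the single leaf and shoot markers were not compared. The 6 seed markers summed to 127.1 to 500.6 in hag2nasp, 229.2 to 1502 in msi2msi3nasp, 4.24 to 132.5 in nasp, 6.92 to 13.6 in libraries labelled hag2msi2msi3 and 9.86 to 56.3 in the wild type at 12 days. In bulk seedlings, fewer cells of a type and less RNA per cell cannot be told apart, and the part of these markers in the levels of the 44 genes was not tested.

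Where the 20-day wild type held the genes, several were lower in the mutants labelled msi2 and msi3. Of the 42 members tested at 20 days, 8 were called lower in msi2msi3 (background 4.15%) and 0 higher (background 3.45%), with 16 at an unadjusted p below 0.05. In libraries labelled hag2msi2msi3, 6 were called lower (background 1.71%) and 0 higher (background 2.58%), with 14 at an unadjusted p below 0.05. Among the other genes with every 12-day wild type value at 50 or more, 5.37% were called lower in msi2msi3 and 2.17% in libraries labelled hag2msi2msi3. All of the calls fell among the 23 members at 50 or more in the 20-day wild type. Of the 12 tested members at or below 10 there, 0 were called, but so low a gene has little room to be called lower. Lower in both mutants were 5 genes (IAA6, IAA29, AT3G42800, AT3G46370 and AT3G46490), but both comparisons share the wild type libraries. Between libraries labelled hag2msi2msi3 and msi2msi3, limma called 0 of 42 members (background 1.02% higher, 0.165% lower and 1.19% in either direction), with 7 at an unadjusted p below 0.05. No 20-day library was used by the rule. Summed over the 44 genes, levels were 7856 to 8671 in libraries labelled hag2msi2msi3, 7401 to 8311 in msi2msi3 and 9945 to 9967 in the wild type.

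IAA29 had the lowest adjusted p of the members in each 20-day mutant against the wild type. It had 67.0, 94.2 and 72.9 in libraries labelled hag2msi2msi3, 114, 117 and 103 in msi2msi3 and 278, 302 and 310.1 in the wild type. The groups did not overlap, and the log2 fold change was -1.93 ± 0.18 (SE, adjusted p = 2.21e-05) in libraries labelled hag2msi2msi3 and -1.41 ± 0.18 (SE, adjusted p = 2.44e-04) in msi2msi3. IAA6 had 157, 111 and 125 in libraries labelled hag2msi2msi3, 96.9, 113 and 165 in msi2msi3 and 246, 239.8 and 224 in the wild type, with -0.86 ± 0.21 (SE, adjusted p = 0.0309) in libraries labelled hag2msi2msi3 and -0.95 ± 0.21 (SE, adjusted p = 0.0123) in msi2msi3. Both mutants lay below the wild type range for IAA6, but its call ended without any 1 of 5 of the 6 libraries in libraries labelled hag2msi2msi3, and without msi2msi3 replicate 1 or wild type replicate 1 in msi2msi3. Both IAA6 calls also ended without the filter and without the trend. Of the 26 other Aux/IAA genes, 2 were called lower in msi2msi3 (background 4.15%) and 0 in libraries labelled hag2msi2msi3 (background 1.71%), with 0 higher in either. The SAUR members were not called: SAUR29 averaged 458 ± 82.7 in libraries labelled hag2msi2msi3, 465 ± 28.9 in msi2msi3 and 504 ± 30.7 in the wild type (SD, n = 3 each). AT3G53250 had 43.1, 43.5 and 39.5 in libraries labelled hag2msi2msi3, 35.4, 37.1 and 48.5 in msi2msi3 and 20.5, 9.81 and 25.4 in the wild type. Every mutant value lay above the wild type range, with log2 differences of 1.23 ± 0.36 (SE, adjusted p = 0.0741) in libraries labelled hag2msi2msi3 and 1.16 ± 0.36 (SE, adjusted p = 0.0672) in msi2msi3 that missed the threshold.

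AT3G46370 and AT3G46490, which lie near each other on chromosome 3, were both lower in each 20-day mutant. The kinase gene AT3G46370 had 754, 617 and 607 in libraries labelled hag2msi2msi3, 621, 529 and 544 in msi2msi3 and 959.5, 902 and 1156 in the wild type, with log2 fold changes of -0.61 ± 0.12 (SE, adjusted p = 0.00747) in libraries labelled hag2msi2msi3 and -0.83 ± 0.12 (SE, adjusted p = 5.05e-04) in msi2msi3. The oxygenase gene AT3G46490 had 407, 346 and 365 in libraries labelled hag2msi2msi3, 486, 419.6 and 389 in msi2msi3 and 700.3, 837 and 655 in the wild type, with -0.96 ± 0.13 (SE, adjusted p = 3.58e-04) in libraries labelled hag2msi2msi3 and -0.76 ± 0.13 (SE, adjusted p = 0.0018) in msi2msi3. Neither mutant overlapped the wild type for either gene, but the AT3G46370 call in libraries labelled hag2msi2msi3 ended without the filter and without the trend (highest adjusted p = 0.0876). AT3G42800 had 127, 93.7 and 113 in libraries labelled hag2msi2msi3, 90.4, 76.1 and 89.1 in msi2msi3 and 194, 187 and 203 in the wild type, with -0.81 ± 0.19 (SE, adjusted p = 0.024) in libraries labelled hag2msi2msi3 and -1.18 ± 0.19 (SE, adjusted p = 0.0013) in msi2msi3. Its call in libraries labelled hag2msi2msi3 ended without any 1 of 5 of the 6 libraries (highest adjusted p = 0.0946).

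**Figure D5:**
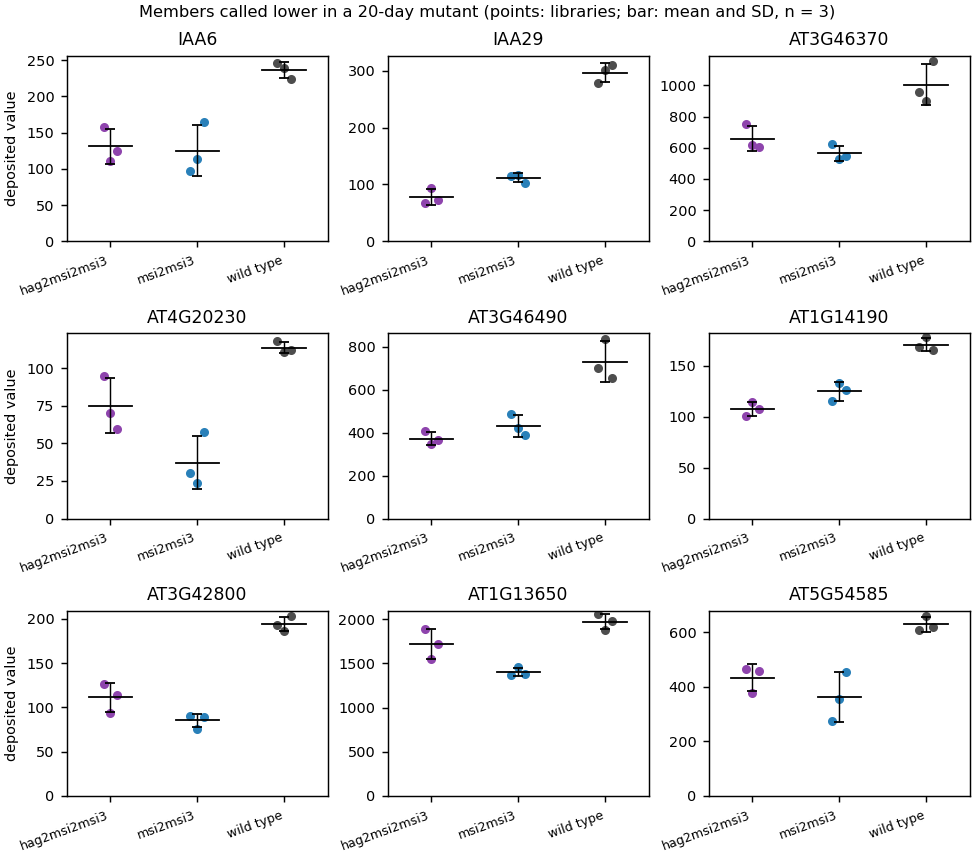
Deposited values of the 9 members called lower in a 20-day mutant, with 1 point per library and a bar for the mean and SD (n = 3), for hag2msi2msi3, msi2msi3 and wild type from left to right in each panel; each vertical axis starts at 0. IAA29 shows the widest gap, with 67.0 to 94.2 in hag2msi2msi3 and 102.5 to 117.3 in msi2msi3 below 277.6 to 310.1 in the wild type.

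The other calls at 20 days were made in 1 mutant each, which does not show that the mutants differ, and none was called between libraries labelled hag2msi2msi3 and msi2msi3. Called in msi2msi3 were AT1G13650, AT5G54585 and AT4G20230. AT4G20230, a terpenoid synthase family gene, had 95.1, 70.2 and 59.8 in libraries labelled hag2msi2msi3, 30.2, 23.9 and 57.3 in msi2msi3 and 118, 111 and 112 in the wild type, with -1.69 ± 0.31 (SE, adjusted p = 0.00346) in msi2msi3 against the wild type. AT1G13650 averaged 1721 ± 172 in libraries labelled hag2msi2msi3, 1404 ± 49.7 in msi2msi3 and 1973 ± 86.6 in the wild type, with -0.49 ± 0.08 (SE, adjusted p = 0.00163) in msi2msi3. AT5G54585 averaged 434 ± 49.2 in libraries labelled hag2msi2msi3, 362 ± 91.4 in msi2msi3 and 629.7 ± 26.4 in the wild type, with -0.83 ± 0.16 (SE, adjusted p = 0.00453) in msi2msi3. The AT4G20230 call ended without the filter, and the AT5G54585 call without the filter and without the trend. Called in libraries labelled hag2msi2msi3 was AT1G14190, with 101, 115 and 107 in libraries labelled hag2msi2msi3, 115, 133 and 126 in msi2msi3 and 169, 178 and 166 in the wild type and a log2 fold change of -0.66 ± 0.17 (SE, adjusted p = 0.0409). That call ended without any 1 of the 6 libraries, with only the 2 groups fitted and with the replicate block (5 members called in place of 6), although no value labelled hag2msi2msi3 or msi2msi3 reached the wild type range.

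The members with the highest wild type levels at 20 days were AT1G13650, AT3G46370, CYP71B22 and AT3G46490. CYP71B22 averaged 1063 ± 108 in libraries labelled hag2msi2msi3, 1064 ± 257 in msi2msi3 and 895 ± 38.8 in the wild type and was not called. Over all 6 comparisons that the rule did not fix, 33 of the 44 genes were called in none and 11 of the 44 in at least 1, against 18.3% of the 25134 genes tested at either age and 22.6% of the 16850 others at 50 or more in every 12-day wild type library. At 20 days the 9 matched anther and pollen markers summed to 2226 to 2527 in libraries labelled hag2msi2msi3, 3441 to 3494 in msi2msi3 and 890.3 to 1143 in the wild type, and their part in the 20-day differences was not tested.

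Values of some members are less certain because their transcripts share stretches with other genes, and how such reads were counted was not given. The share of 50-base windows found in another gene was 70.4% for AT5G57760, 47.3% for AT4G12520, 45.3% for AT3G01960, 31.0% for AT2G47880, 10.2% for AT4G33120 and 8.497% for CYP82C4. It was below these for the others, and 0% for IAA6, IAA29, AT1G13650, AT3G46370 and AT3G46490.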

How the data were processed

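The values are signal: read totals per gene that the authors normalized before they deposited them, with fractions. The submitters' processing notes name bcl2fastq, HISAT2, edgeR and TAIR10, without versions; how reads were counted, and on which annotation, is not given in the sources used here. What 1 read is worth was not worked out, so depth is not stated. At 12 days low values lay close to whole numbers, as with 1.003, 2.01, 3.01 and 4.02 in hag2nasp replicate 1. There 1 unit may thus be near 1 read. All 32548 genes matched the reference (TAIR10.1), and 72771 cells of rounding residue at 20 days were set to 0.

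The rule was applied to the 12-day table. limma 3.58.1 (lmFit, eBayes with trend, R 4.3.3) was fitted to log2(value + 1) of genes that reached 1 in 3 or more libraries (24305 at 12 days, 23707 at 20 days), all groups of an age together, with Benjamini-Hochberg adjustment over all genes tested and calls below 0.05. Fold changes are on the log2(value + 1) scale, which understates the change of low genes. The fits were also run on simulated data with changes planted in genes above a low level. That run covers neither genes of very low level nor the choice by the rule. The members and the gene lists were chosen with earlier results of these data known, and 16 lists were searched, 4 of which hold a member. Genes named with values were the 12 highest in the 12-day wild type, up to 6 called per comparison and direction, the 4 highest and 4 lowest in the 20-day wild type, members of those lists and the genes beside each limit; others are named by what they encode or as chosen later. Alternatives changed the pseudocount, filter, scaling, spread model, groups fitted, replicate block, limits and libraries.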

Additional observations from a re-analysis of the deposited data

Results flagged for a closer look

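For FUT5 and PAP14, every library labelled hag2msi2msi3 lay below every wild type library at 12 days and above every wild type library at 20 days. FUT5 had 84.1, 86.3 and 67.4 in libraries labelled hag2msi2msi3 against 109.8, 101.4 and 106.0 in the wild type at 12 days. At 20 days it had 1.89, 5.26 and 3.04 in libraries labelled hag2msi2msi3 and was listed at 0 in all 3 msi2msi3 and all 3 wild type libraries, a fitted difference of 2.06 on the log2(value + 1) scale. PAP14 had 3.71, 10.6 and 20.2 in libraries labelled hag2msi2msi3 and 18.5, 11.2 and 0 in msi2msi3 at 20 days and was listed at 0 in all 3 wild type libraries, a fitted difference of 3.39. Against a group at 0 these differences depend on the added 1 and give no fold. Neither gene was called at 20 days, and the difference between the ages was not tested. The rule used the 12-day wild type libraries, and the share of all genes with this order at both ages was not counted.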

How the results depend on the processing

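The number of genes depends on the limits: it was 14 with wild type values of at least 100 and 122 with at least 25, and 13 with combination values of at most 5 and 138 with at most 20; leaving out 1 library gave 44 to 53. Members called in nasp against the wild type (2) were 0 without the filter on low values and 0 without the trend. In libraries labelled hag2msi2msi3 at 12 days (4) they were 8 with a pseudocount of 5, 1 without the filter and 1 without the trend. Between nasp and libraries labelled hag2msi2msi3 (4) they were 7 with a pseudocount of 5 and 2 without the filter. Between libraries labelled hag2msi2msi3 and msi2msi3 at 20 days (0) they were 1 without the filter and 1 without the trend. Leaving out 1 library gave 0 to 1, 0 to 3, 3 to 4 and 0 to 1 calls in these comparisons in this order, 7 to 9 in msi2msi3 (8) and 3 to 6 in libraries labelled hag2msi2msi3 (6) at 20 days. Without the filter 6 were called in msi2msi3, where IAA6, AT4G20230 and AT5G54585 lost their calls, and 5 in libraries labelled hag2msi2msi3, where IAA6 and AT3G46370 did. Without the trend 7 and 5 were called. Each of these counts also includes a gained call of a member not called in the main fit. Without 1 library of a group of 3, the spread was pooled over all groups of the age.

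Replicate numbers did not pair the libraries: deviations of same-numbered libraries correlated at -0.0557 to 0.0956 at 12 days and -0.0330 to 0.0524 at 20 days. With the replicate block the calls were 2, 4 and 5 at 12 days, and 8 in msi2msi3 and 5 in libraries labelled hag2msi2msi3 at 20 days. Of 24 calls of single members, 9 held under every alternative and without any 1 library, and 0 turned direction. Because the worth of 1 read was not worked out, no counting error is given.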

Other observations

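SULTR1;1 was close to absent in both combinations while most other genes of its response were called higher. Of 13 other genes of the sulfur deficiency response, 11 were called higher and 0 lower in hag2nasp, and 10 higher and 0 lower in msi2msi3nasp, where 33.1% and 33.6% of all genes tested were called higher. The median log2 difference over the 13 was 1.1004 in hag2nasp and 0.68 in msi2msi3nasp, while SULTR1;1 had 8.02, 3.78 and 2.91 in hag2nasp and 2.84, 2.82 and 2.97 in msi2msi3nasp, against 56.4, 56.7 and 82.3 in the wild type. APR3, an adenosine 5′-phosphosulfate reductase of sulfate assimilation, stood at 8473 ± 1453 in hag2nasp and 7149 ± 914.8 in msi2msi3nasp, against 2710 ± 429.5 in the wild type (SD, n = 3). SULTR1;2, the other high-affinity root sulfate transporter, stood at 1933 ± 262.1 in hag2nasp, where it was called higher, and at 1835 ± 127.8 in msi2msi3nasp, where it was not, against 1614 ± 117.4 in the wild type. Both genes were picked after their values were seen. In nasp 0 of the 13 were called in either direction, and in libraries labelled hag2msi2msi3 at 12 days 1 was lower (1.96% of all genes tested were). At 20 days 5 of the 13 were called lower in msi2msi3 (4.15% of all genes tested were) and 1 in libraries labelled hag2msi2msi3 (1.71%), and 4 were called higher in libraries labelled hag2msi2msi3 than in msi2msi3 (1.02%). SULTR1;1 itself had 5.64, 12.7 and 18.2 in libraries labelled hag2msi2msi3, 2.14, 7.49 and 7.77 in msi2msi3 and 8.84, 14.8 and 4.71 in the wild type. The lists were chosen with earlier results of these data known, and the contrast of the combinations with the wild type is the one that chose SULTR1;1.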
